A study of Mus musculus with 18 samples.

Results

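The genes described here are 38 genes of mitosis and the mitotic spindle, taken as a named list from the 55401 genes counted in mRNA-seq of NIH/3T3 cells. They cover the kinase and cyclins that start mitosis, the Polo-like and Aurora kinases, the kinetochore and its checkpoint, kinesin motors, spindle proteins, chromosome structure, cytokinesis and the anaphase machinery. Each gene was found by its symbol, and all 38 passed edgeR's filter on low counts, which left 14688 genes to be tested. The list was not chosen by a measured value, but it was drawn up with earlier results of these data known.

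In a dividing cell, cyclin B bound to the kinase CDK1 starts mitosis, and the Polo-like kinase PLK1 and the Aurora kinases then build the spindle. Kinetochores, protein assemblies on each centromere, capture spindle microtubules, while checkpoint proteins hold back the anaphase-promoting complex (APC/C) until every chromosome is attached. The APC/C with CDC20 then marks securin and cyclin B for destruction, separase opens the cohesin ring, and the sister chromatids part. Most of these genes are transcribed late in the cell cycle, so in a growing culture their mRNA level follows both the share of cells in G2 and mitosis and the level in each such cell. In bulk RNA, fewer cells of that phase and less RNA per cell cannot be told apart.

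NIH/3T3 is an immortal mouse embryonic fibroblast line. The study compared WT cells with XPO4 KO cells, in which CRISPR-Cas9 edited both copies of Xpo4 in the same way. XPO4 is an exportin, a carrier that takes cargo out of the nucleus, and the study asked whether it exports circular RNAs. The KO is 1 cell line, so a difference between the lines is a difference between these cultures, and any change that arose in the line beside the edit cannot be told apart from it. Both lines grew in DMEM with fetal bovine serum, with no further treatment named. mRNA-seq had 3 WT and 3 KO libraries of total RNA, and 12 circRNA-seq libraries of RNase R treated RNA covered nucleus, cytoplasm and whole cells, with 2 libraries of each genotype. Nothing states that the libraries of a genotype came from separate cultures, so p-values measure only the spread between these libraries.

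Each mRNA-seq library had from 16974062 to 22057323 reads counted on genes. Genotypes follow the sample titles, and "KO" and "WT" below mean the libraries so titled. Inside all 6 count files the column heading names the other genotype, and every direction given here for mRNA, though not for circles, would turn if those headings were right. Xpo4 itself was counted 657, 614 and 685 times in the WT libraries against 712, 504 and 687 times in the KO libraries, and the groups overlapped (log2 fold change 0.18 ± 0.11 SE, edgeR adjusted p = 0.193). An edit in an exon need not lower the count of a gene, so this does not check the titles. The 4 Y-linked genes Ddx3y, Kdm5d, Uty and Eif2s3y had 0 reads in every WT library and between 100 and 594 in the KO libraries. Whole-cell circRNA libraries of both genotypes held Y-linked circles (10 and 12 reads in WT, 19 and 24 in KO), while the cytoplasmic and nuclear libraries of both genotypes listed none. All 10 fibroblast markers were over 1 FPKM (reads scaled to exonic length and library size) in every library, and Cdkn2a, which this line is known to lack, had 0 reads in each. The 6 epithelial markers summed to between 2.67 and 2.97 FPKM in WT and between 0.3005 and 0.671 in KO, with Epcam and Krt18 at 0 throughout. Most of this was Krt14, at 2.54, 2.66 and 2.90 FPKM in WT and 0.572, 0.288 and 0.267 in KO (edgeR adjusted p = 2.26e-06). The 5 haematopoietic markers summed to between 10.4 and 12.2 FPKM in WT and between 7.56 and 9.83 in KO, with Cd3e at 0, and the 4 endothelial markers to at most 0.244 in any library. The part of these markers in the results below was not tested. KO replicate 2 stood apart from the other KO libraries, with a chi-square per gene of 9.74 and 11.3 against them, where the other 2 KO libraries gave 3.47 and the WT pairs between 2.92 and 4.65.

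Most of the mitosis genes were slightly lower in the KO cells. Of the 38, 23 fell, 2 rose and 13 did not pass the test (edgeR quasi-likelihood test, Benjamini-Hochberg adjusted p under 0.05 over all 14688 genes). The genotypes differed widely, since 48.7% of all genes tested were called, 23.6% lower and 25.1% higher. The share of called members, 65.8%, thus stands against a high background, whereas the 60.5% that fell stand against 23.6%. All 38 are among the 8738 genes with a mean log2 CPM (counts scaled to library size) over 4. The background also includes genes with lower counts, and shares among the 8738 were not computed. The median log2 fold change of the members was -0.18, with quartiles of -0.25 and -0.10 and a range from -0.65 to 0.57, beside a median of -0.003 over all genes. In 31 of the 38 genes the fold change was negative. In 24 genes every KO library lay below every WT library, in 4 every KO library lay above, and in 10 the libraries overlapped, where 28.7% and 29.1% of all genes did not overlap with KO below and KO above. The summed FPKM of the 38 genes was 903, 912 and 916 in the WT libraries and 829, 843 and 826 in the KO libraries, which do not overlap.

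The changes were small beside the level of each gene. Only Cdk1, Cenpf and Espl1 changed by more than 0.5 on the log2 scale, and the 23 genes that fell did so by between 0.16 and 0.65. Without KO replicate 2, the library that stood apart, 26 members were called, 24 of them lower, and leaving out any 1 library gave between 19 and 26. Of the 23 lower calls, 8 did not pass without 1 or more libraries (Cdc25c, Kif23, Kif4, Tpx2, Plk1, Aurkb, Cdc20 and Incenp), as given with each gene below.

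**Figure D1:**
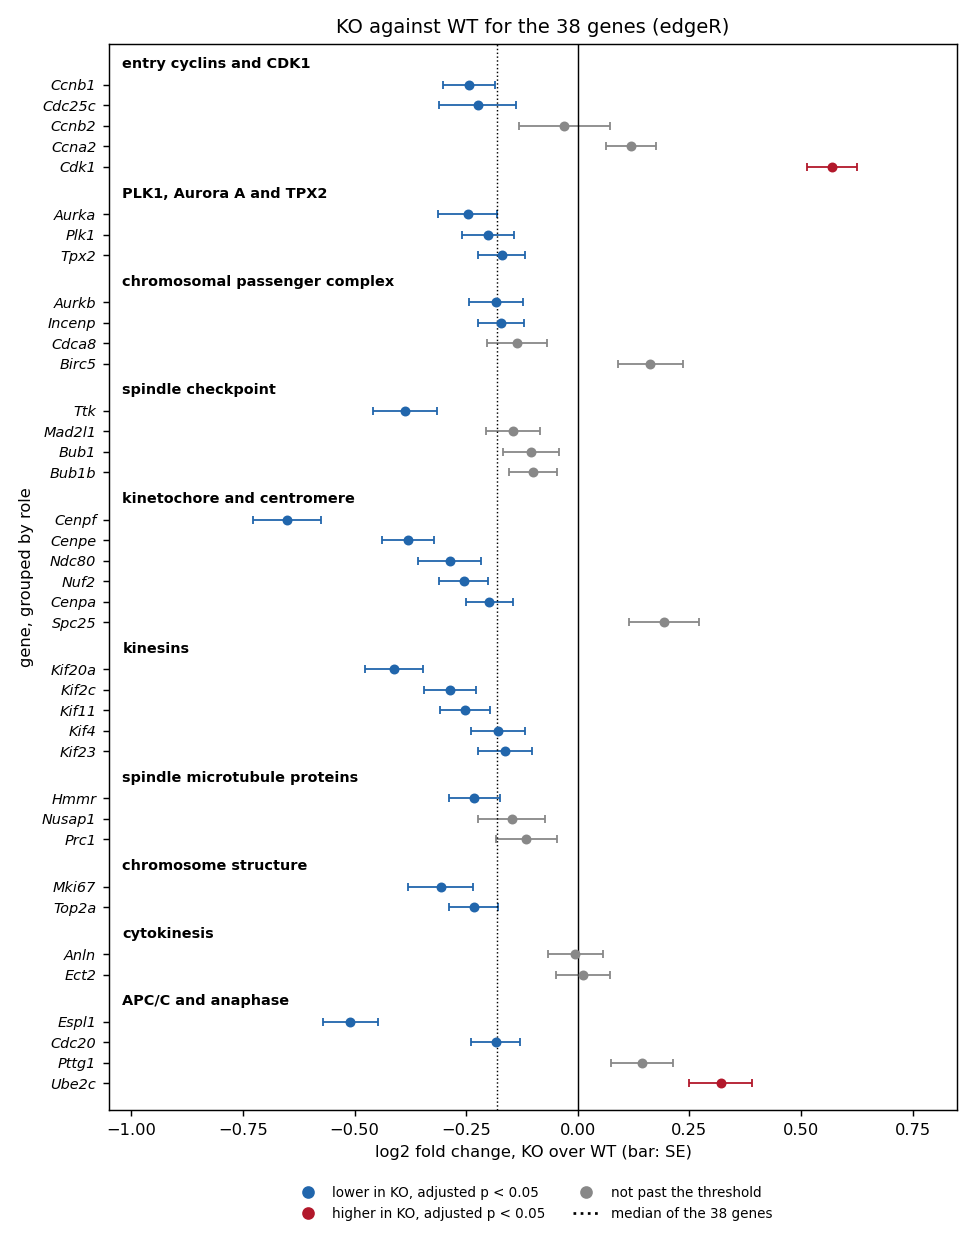
Log2 fold change of each of the 38 genes, KO over WT, grouped by role; the point is the edgeR estimate from 3 libraries of each genotype and the bar its standard error. The 23 genes that fell and the 2 that rose are coloured, the 13 not past the threshold are grey, and the dotted line marks the median of -0.18.

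The genes that start mitosis did not move as a group. Of the 5, Cdk1 rose, Ccnb1 and Cdc25c fell, and Ccna2 and Ccnb2 did not pass. Cdk1, the kinase that drives entry into mitosis, was at 21.6, 21.6 and 23.0 FPKM in the WT libraries and at 32.1, 33.8 and 32.3 in the KO libraries. Every KO library was above every WT library by a wide margin. The increase was 48.3% (log2 fold change 0.57 ± 0.06 SE, edgeR adjusted p = 2.36e-06), and it ranged between 0.55 and 0.60 when single libraries were left out.

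Ccnb1, which encodes cyclin B1, the partner of CDK1 at mitotic entry, was at 27.8, 27.8 and 28.2 FPKM in WT and at 22.5, 23.1 and 25.02 in KO. The WT libraries were nearly equal and all 3 KO libraries lay below them, a drop of 0.24 ± 0.06 SE on the log2 scale (edgeR adjusted p = 0.00335). The ratio of Cdk1 to Ccnb1 FPKM was therefore between 0.776 and 0.818 in the WT libraries and between 1.29 and 1.46 in the KO libraries, as a description of the same values. A pseudogene of Ccnb1 and one of Ccnb2 are also in the count table, and how reads that match both were placed is uncertain.

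Ccnb2, the second B-type cyclin, was at 15.1, 15.6 and 17.3 FPKM in WT and at 17.2, 16.6 and 13.2 in KO, and the libraries overlapped (log2 fold change -0.03 ± 0.10 SE, edgeR adjusted p = 0.823). Ccna2, which encodes cyclin A2 of S phase and G2, was at 32.3, 33.0 and 33.9 FPKM in WT and at 34.9, 37.5 and 35.3 in KO. All 3 KO libraries were above the WT libraries, but the difference of 0.12 ± 0.06 SE did not pass the test (edgeR adjusted p = 0.0905), and 12.5% of the exonic length of Ccna2 also lies in Exosc9. Cdc25c, a phosphatase that activates CDK1, had a log2 fold change of -0.22 with overlapping libraries and an edgeR adjusted p of 0.046. That call was lost in DESeq2 (adjusted p = 0.0683) and without WT replicate 2, WT replicate 3, KO replicate 1 or KO replicate 2, and 12.7% of its exonic length also lies in Gm3550.

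The spindle kinase genes Plk1 and Aurka fell, as did Tpx2. Plk1 was at 34.0, 34.0 and 32.2 FPKM in WT and at 27.9, 30.3 and 29.1 in KO (log2 fold change -0.20 ± 0.06 SE, edgeR adjusted p = 0.012). The groups did not overlap, but the call was lost without WT replicate 2 (adjusted p = 0.0516) or KO replicate 1 (0.0726). Aurka, the Aurora kinase of centrosomes and spindle poles, was at 21.0, 22.6 and 22.1 FPKM in WT and at 19.7, 17.9 and 17.8 in KO, again without overlap (log2 fold change -0.25 ± 0.07 SE, edgeR adjusted p = 0.00722). Tpx2, the spindle protein that activates Aurora A, fell by 0.17 on the log2 scale, and its call was lost without WT replicate 2, WT replicate 3, KO replicate 1 or KO replicate 3.

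The chromosomal passenger complex corrects wrong attachments of kinetochores and later acts in cytokinesis. Its kinase Aurkb was at 28.1, 27.3 and 29.8 FPKM in WT and at 24.4, 26.1 and 24.5 in KO. The KO libraries were all lower, though the nearest libraries of the groups differed little (log2 fold change -0.18 ± 0.06 SE, edgeR adjusted p = 0.0212), and the call was lost without WT replicate 3, KO replicate 1 or KO replicate 3. Incenp, the scaffold of the complex, fell by 0.17 with little spread inside either group, 34.5 ± 0.285 FPKM in WT and 30.7 ± 0.152 in KO (SD, n = 3); without WT replicate 3 its adjusted p was 0.0579. Cdca8 (borealin) at -0.14 and Birc5 (survivin) at 0.16 did not pass, with adjusted p of 0.108 and 0.08 in edgeR. Cdca8 passed without KO replicate 2 and Birc5 without KO replicate 3, each after leaving out a different library. With all libraries the groups overlapped in both genes, so their opposite signs were not resolved.

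Of the 4 checkpoint genes only Ttk passed. Ttk, which encodes the kinase MPS1 that starts the checkpoint signal, was at 6.39, 6.97 and 6.79 FPKM in WT and at 5.17, 5.26 and 4.98 in KO. It was among the lowest of the 38 genes by level, yet its groups were far apart for their spread (log2 fold change -0.39 ± 0.07 SE, edgeR adjusted p = 0.000583). Bub1, Bub1b and Mad2l1, which bind unattached kinetochores or hold CDC20, had log2 fold changes of -0.10, -0.10 and -0.14 with adjusted p between 0.0622 and 0.185. In Bub1 and Bub1b every KO library was nevertheless below every WT library, and Mad2l1 passed without KO replicate 2.

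The kinetochore and centromere genes fell in 5 of 6. Cenpf, a large protein of the outer kinetochore that accumulates in G2, changed most of all 38 genes. It was at 13.2, 12.9 and 12.3 FPKM in WT and at 8.66, 7.04 and 8.71 in KO. KO replicate 2 was the lowest library, and the other 2 KO libraries were also well below WT (it fell by 36.3%, log2 fold change -0.65 ± 0.08 SE, edgeR adjusted p = 1.2e-05). Without KO replicate 2 the drop was still 0.55. Cenpe, the kinesin of the kinetochore that moves chromosomes to the spindle equator, fell by 0.38. Ndc80 and Nuf2, which together form the microtubule-binding head of the NDC80 complex, fell by 0.29 and 0.26, and Cenpa, the histone H3 variant that marks centromeres, by 0.20. Spc25, a subunit at the other end of the same NDC80 complex, was at 8.02, 7.68 and 6.97 FPKM in WT and at 8.59, 8.92 and 8.39 in KO. All 3 KO libraries were higher, opposite to Ndc80 and Nuf2, and the difference of 0.19 ± 0.08 SE just missed the threshold (edgeR adjusted p = 0.0571), which it passed without WT replicate 1 (0.0491).

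All 5 kinesins, the microtubule motors of the spindle, fell. Kif20a, which moves along the central spindle and is needed for cytokinesis, was at 20.9, 21.1 and 21.7 FPKM in WT and at 14.8, 15.9 and 17.3 in KO. The groups did not overlap (log2 fold change -0.41 ± 0.06 SE, edgeR adjusted p = 0.000152). Of its exonic length, 29.3% also lies in Cdc23, a subunit of the APC/C that fell too, and the counting was not set to use strand, so reads there cannot be given to either gene. Kif2c, which takes microtubules apart at centromeres, fell by 0.29. Kif11 (Eg5), which pushes the spindle poles apart, fell by 0.25. Kif4, a motor on chromosome arms, fell by 0.18 and Kif23, part of centralspindlin, by 0.16. Kif23 had the highest adjusted p of the 23 lower calls after Cdc25c, at 0.039 in edgeR. It was lost in DESeq2 (adjusted p = 0.0587), with no filter on low counts (edgeR, 0.0743) and without any 1 library other than KO replicate 3. Kif4 shares 15.1% of its exonic length with Pdzd11, has a pseudogene in the table and lost its call without WT replicate 1, WT replicate 2 or KO replicate 1.

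Among the proteins that bind spindle microtubules, Hmmr fell by 0.23 and Nusap1 and Prc1 did not pass, at -0.15 and -0.12 (Prc1 shares 11.1% of its exonic length with Rccd1). Nusap1, which bundles microtubules near chromatin, passed without KO replicate 2 (edgeR adjusted p = 0.00387). Both genes of chromosome structure fell. Top2a, the topoisomerase that untangles sister chromatids, was the second most abundant of the 38 mRNAs, at 57.3, 55.6 and 54.5 FPKM in WT and at 47.5, 45.2 and 49.7 in KO, without overlap (log2 fold change -0.23 ± 0.05 SE, edgeR adjusted p = 0.0031). Mki67, which coats mitotic chromosomes and is the usual stain for proliferating cells, fell by 0.31, from 34.9 ± 1.04 to 28.2 ± 3.20 FPKM (SD, n = 3). The cytokinesis genes Anln and Ect2 were the nearest to 0 of all 38, with log2 fold changes of -0.01 and 0.01, each ± 0.06 SE, and overlapping libraries.

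The 4 genes of the APC/C and anaphase went in both directions. Cdc20, the activator of the APC/C in mitosis, was the most abundant of the 38 mRNAs and rank 350 of all genes tested. It was at 129.95, 130.8 and 130.4 FPKM in WT and at 115, 120.7 and 108 in KO. The WT libraries were nearly equal, and all KO libraries were lower and more spread (log2 fold change -0.18 ± 0.06 SE, edgeR adjusted p = 0.0142). The call was lost without WT replicate 2 (0.0521), WT replicate 3 (0.0513) or KO replicate 3 (0.0708).

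Ube2c, the ubiquitin-conjugating enzyme that works with the APC/C, was at 26.9, 29.1 and 29.9 FPKM in WT and at 34.1, 39.3 and 33.8 in KO. It was the other gene that rose, with every KO library above WT (24.8% higher, log2 fold change 0.32 ± 0.07 SE, edgeR adjusted p = 0.00204). Of its exonic length, 22.8% is shared with Tnnc2. Enzyme and activator thus went in opposite directions, and the ratio of Ube2c to Cdc20 FPKM was between 0.207 and 0.229 in WT and between 0.296 and 0.326 in KO.

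Espl1 and Pttg1 encode separase, the protease that cleaves cohesin, and securin, which binds and inhibits it. Espl1 was at 16.3, 15.2 and 14.7 FPKM in WT and at 11.3, 10.3 and 10.8 in KO. It fell by 29.7%, the largest drop after Cenpf, with no overlap (log2 fold change -0.51 ± 0.06 SE, edgeR adjusted p = 1.63e-05). Pttg1 was at 21.2 ± 1.01 FPKM in WT and 23.5 ± 1.47 in KO (SD, n = 3), a difference of 0.14 that did not pass (edgeR adjusted p = 0.105). The Espl1 to Pttg1 ratio of FPKM was between 0.657 and 0.778 in WT and between 0.411 and 0.490 in KO.

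**Figure D2:**
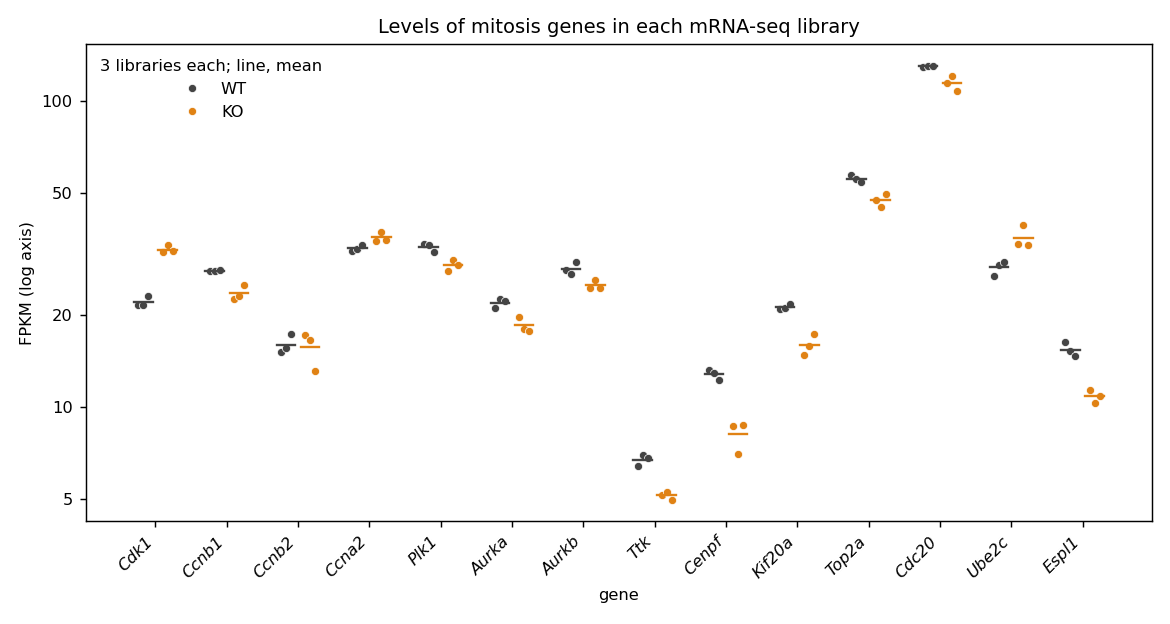
FPKM on a log axis of 14 of the genes in each mRNA-seq library, with WT in grey and KO in orange; points are single libraries and lines the mean of 3. Cdk1 and Ube2c lie higher in all 3 KO libraries, Ccnb2 overlaps, and Cenpf and Espl1 show the widest gaps below WT.

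By level per length, the 38 mRNAs spanned from 5.57 FPKM for Cdc25c to 122.6 for Cdc20, as means over the 6 libraries. After Cdc20 and Top2a came Ccna2 at 34.5. In the order of levels, the WT libraries of neighbouring genes overlapped in 20 of 37 pairs and the KO libraries in 25, so the order within most of the list was not resolved.

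Promoter sequences show what many of these genes share beyond their role. Late cell cycle genes often carry a CHR element, the letters TTTGAA near the start, through which the DREAM complex represses them in resting cells and the MuvB complex with B-MYB and FOXM1 activates them before mitosis. CCAAT boxes, which bind NF-Y, usually lie upstream. The RefSeq promoter table (GRCm38.p6, from 250 bases before to 50 after each gene's start) held 34 promoters of 32 of the 38 genes, and the 6 genes without an entry were Tpx2, Kif20a, Incenp, Ccna2, Aurkb and Cdc25c. TTTGAA was found on either strand in 26 of 34, or 76.5%, beside 17.9% of all 32851 promoters, and CCAAT on either strand in 26, beside 37.4%. Both motifs stood in 23 of 34, or 67.6%, beside 6.95%. These are the strings only, and a match is not a bound site; matches to the 2 motifs share a base in 1 gene, Cdca8. TTTGAA stood in the promoters of both genes that rose, in 15 of 18 that fell and in 9 of 14 promoters of genes that did not pass. The stretch before the RefSeq start is printed for the 2 genes that rose, Cdk1 and Ube2c, and for 4 of those that fell, Cdc20, Espl1, Top2a and Kif11, so that the same motifs can be seen on both sides. GENCODE starts some of these genes further upstream, and 26 of the printed bases for Cdk1, 30 for Ube2c, 9 for Cdc20 and 30 for Espl1 (some of them of Gm49479 on the other strand) are exonic in it; the TTTGAA match nearest the start of Cdk1, Ube2c and Espl1 lies inside the gene as GENCODE bounds it. Each is written 5′ to 3′ along its gene, with TTTGAA (or TTCAAA on the other strand) and CCAAT (or ATTGG) in capitals.
Cdk1 (chr10:69352913-69353062, minus strand): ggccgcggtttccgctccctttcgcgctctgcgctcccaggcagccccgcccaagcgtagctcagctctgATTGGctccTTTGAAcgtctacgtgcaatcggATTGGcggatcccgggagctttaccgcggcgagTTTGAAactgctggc
Ube2c (chr2:164769779-164769927, plus strand): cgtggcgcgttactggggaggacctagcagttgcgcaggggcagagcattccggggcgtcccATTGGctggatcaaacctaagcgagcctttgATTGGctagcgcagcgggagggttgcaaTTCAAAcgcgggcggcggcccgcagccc
Cdc20 (chr4:118437344-118437493, minus strand): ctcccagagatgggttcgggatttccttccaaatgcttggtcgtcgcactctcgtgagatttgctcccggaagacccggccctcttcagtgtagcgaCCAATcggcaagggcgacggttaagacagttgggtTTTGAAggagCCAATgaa
Espl1 (chr15:102296143-102296286, plus strand): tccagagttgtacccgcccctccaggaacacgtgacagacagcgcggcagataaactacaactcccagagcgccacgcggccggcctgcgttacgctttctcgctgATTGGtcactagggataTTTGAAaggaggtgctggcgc
Top2a (chr11:99024190-99024339, minus strand): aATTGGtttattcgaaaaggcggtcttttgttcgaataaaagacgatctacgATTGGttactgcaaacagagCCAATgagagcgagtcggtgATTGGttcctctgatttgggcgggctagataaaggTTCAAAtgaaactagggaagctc
Kif11 (chr19:37376232-37376381, plus strand): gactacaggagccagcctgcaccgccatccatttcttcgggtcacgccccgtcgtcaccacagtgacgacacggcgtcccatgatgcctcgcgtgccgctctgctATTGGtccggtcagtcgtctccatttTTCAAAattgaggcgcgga

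In these promoters a TTTGAA match stood close to the start. The first base of the match lay at -15 in Cdk1, -29 in Ube2c, -18 in Cdc20, -27 in Espl1, -23 in Top2a and -19 in Kif11, counted from the start, with a second match at -71 in Cdk1 and at -179 in Top2a, the latter outside the printed stretch. Over all matches in the 34 promoters the median position was 2 for TTTGAA and -67.5 for CCAAT. In Cenpf, which fell most, TTTGAA lay just past the start, at 2, and Ccnb2 held matches at 4 and -167. Of the 34 promoters, 18 held at least 2 CCAAT boxes, and neighbouring boxes lay a median of 33.5 bases apart. The letters thus stood in promoters of genes that rose and of genes that fell alike.

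Some genes lie on chromosomes whose genes moved together. On chromosome 10 the median log2 fold change of 689 genes tested was 0.45 and 66.0% of them rose, and Cdk1 is the only one of the 38 there. Its 0.57 was above 429 of the 688 other genes on that chromosome, and the genes within 5 Mb of it had a median of 0.43. On chromosome 1 the median was -0.21, and Cenpf (-0.65) and Nuf2 (-0.26) lie there. On chromosome 3 it was 0.16, and Ccna2 (0.12), Cenpe (-0.38) and Ect2 (0.01) lie there, all below that median. The medians of the other autosomes were between -0.13 and 0.04. Measured from the median of their own chromosome, 33 of the 38 genes lay below and 5 above, with a median difference of -0.19. On chromosome 1, Cenpf differed from that median by -0.44 but Nuf2 by only -0.05, and 45.3% of the other genes there lay lower than Nuf2. Among the 32 genes off chromosomes 1, 3 and 10, 20 (62.5%) fell and only Ube2c (3.1%) rose, with a median of -0.18. By chromosome, between 17.9% and 36.3% of all genes tested on the other autosomes and X fell, and between 15.4% and 29.0% rose. The part of chromosome-wide shifts in the change of Cdk1, Cenpf and the other genes was not tested.

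**Figure D3:**
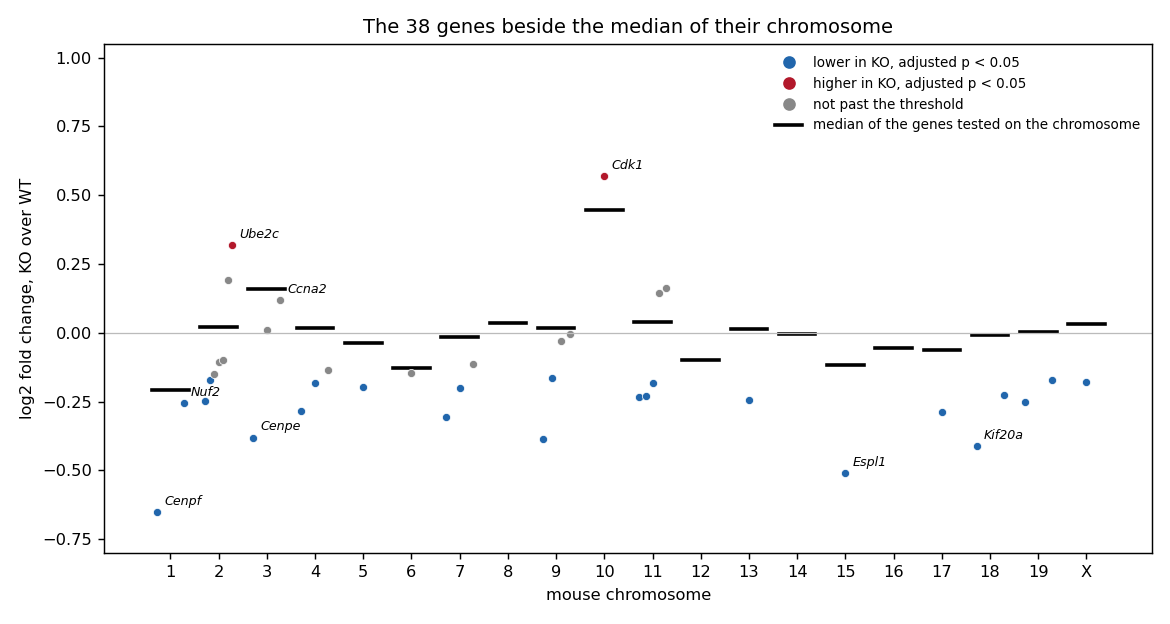
Log2 fold change, KO over WT, of the 38 genes (points) by mouse chromosome, with the median of all genes tested on each chromosome as a black line. Cdk1 sits just above the raised line of chromosome 10 at 0.45, while 33 of the 38 genes lie below the line of their chromosome.

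Fold changes also moved with gene length. Among the 8738 genes with a mean log2 CPM (counts scaled to library size) over 4, which hold all 38, the median log2 fold change went from 0.15 in the shortest of 10 equal classes of exonic length to -0.14 in the longest. Several of the genes that fell are long (Cenpf is in the longest class), and the median exonic length was 5431 bases for the genes that fell, 4275 for those not past the threshold and 3767 for the pair that rose. Measured from the median of their own length class, 30 of the 38 genes lay below and 8 above, with a median difference of -0.21. Log2 fold change and exonic length had a Spearman correlation of -0.24 over the 8738 genes and -0.41 among the 38. The part of length was not tested further.

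Other genes of mitosis were described from 4 further lists with 107 genes, all tested. Of these, 40 fell, 14 rose and 53 did not pass, with a median log2 fold change of -0.13. The 50.5% called were near the 48.7% of all genes, with 37.4% lower and 13.1% higher beside 23.6% and 25.1%. The lists differed among themselves. Of 37 further spindle, kinesin and cytokinesis genes, 20 (54.1%) fell and 5 rose, with a median of -0.20. Aspm, a spindle pole protein, was at 15.2, 13.7 and 13.7 FPKM in WT and at 7.37, 6.16 and 7.64 in KO (log2 fold change -1.01 ± 0.08 SE, edgeR adjusted p = 2.69e-07). Kif14, a motor of the midbody, fell by 0.78. Both lie on chromosome 1, where 6 of 7 genes of these lists fell, beside 44.3% of all genes tested there. Ensa, whose product inhibits the phosphatase PP2A-B55 in mitosis, rose by 0.44.

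Of 33 further kinetochore and centromere genes, 9 fell and 3 rose, with a median of -0.10. The 27.3% that fell were near the 23.6% of all genes, and fewer were called than over all genes, 36.4% beside 48.7%. Zwint, of the outer kinetochore, was at 35.4, 37.0 and 36.8 FPKM in WT and at 54.3, 57.5 and 54.0 in KO, a rise of 0.60 ± 0.05 SE (edgeR adjusted p = 9.44e-07). Zwint lies on chromosome 10, where all 5 genes of these lists rose, beside 66.0% of all genes tested there. Nsl1, of the MIS12 complex, fell by 0.57 and lies on chromosome 1.

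Condensin and cohesin genes fell in 9 of 20, with a median of -0.15, and the other 11 did not pass. These 9 were a larger share than the 23.6% of all genes that fell, but a smaller share than the 48.7% called. The condensin I subunit Ncapd2 fell by 0.47, the condensin II subunit Ncapg2 by 0.53 and the cohesin loader Nipbl by 0.51. Of 17 genes of the APC/C list 6 rose, 2 fell and 9 did not pass, with a median of 0.10; 35.3% rose, beside 25.1% of all genes. Of the 6 that rose, 3 lie on chromosome 10. Anapc16 rose by 0.54 and Fzr1 (CDH1), the activator of the APC/C after mitosis, by 0.45. Fbxo5 (EMI1), which inhibits the APC/C and was named after its value was seen, rose by 0.29. Ube2s, which extends the ubiquitin chains that UBE2C begins, rose by 0.40 and lies on chromosome 7, whose median was -0.02.

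**Figure D4:**
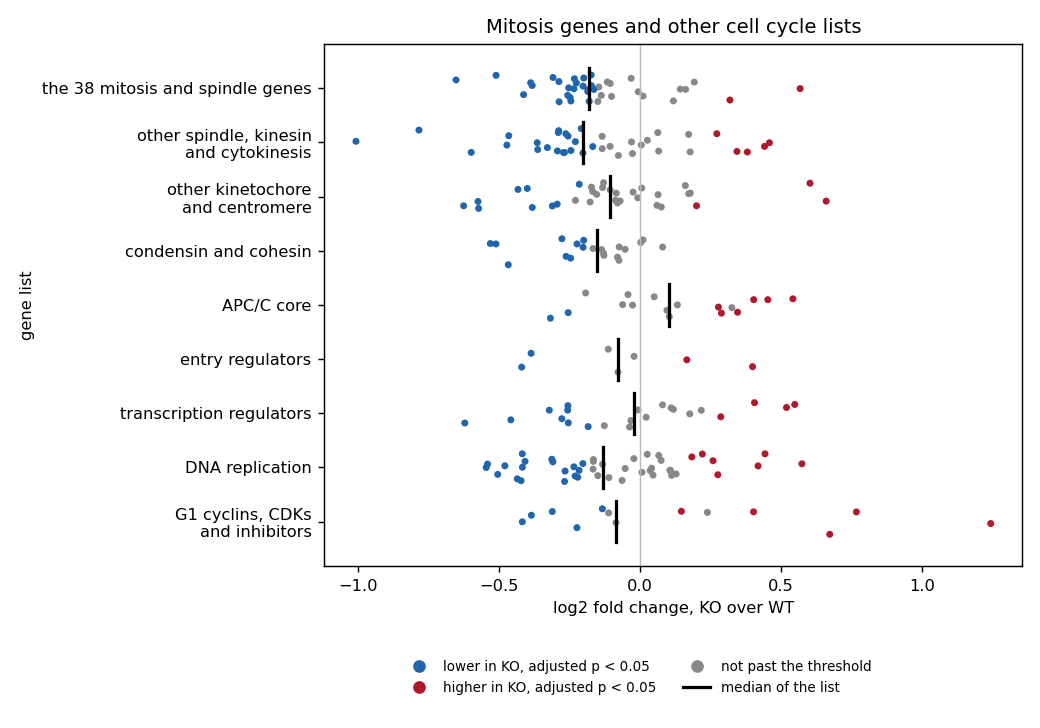
Log2 fold change, KO over WT, of every gene tested in the 38 and in 8 other cell cycle lists; each point is a gene, coloured by its edgeR call, and the black line is the median of its list. The medians of the spindle, kinetochore and condensin lists lie below 0, and that of the APC/C list lies at 0.10.

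Of 7 further regulators of mitotic entry, 2 fell and 2 rose, 28.6% each, near the 23.6% and 25.1% of all genes. Pkmyt1, a kinase that inhibits CDK1, fell by 0.42, and Ccnf (cyclin F) fell by 0.39. Ppp2r2d, a B55 subunit of PP2A, rose by 0.40. Among 22 transcription regulators of these genes, 8 (36.4%) fell and 4 (18.2%) rose, beside 23.6% and 25.1% of all genes, with a median of -0.02. E2f1 was at 12.9, 12.7 and 12.3 FPKM in WT and at 18.4, 17.9 and 18.0 in KO, a rise of 0.52. E2f7, a repressor of the E2F family, fell by 0.62 and lies on chromosome 10. Nfyb, a subunit of NF-Y, rose by 0.41, also on chromosome 10. The other NF-Y subunits did not follow it, as Nfya fell by 0.25 and Nfyc, at 0.02, did not pass. The regulators that act at the CHR, looked up after their values were seen, did not all share a direction. Foxm1 fell by 0.18 and Mybl2 (B-MYB) by 0.26. Of the MuvB subunits Lin9, on chromosome 1, fell by 0.28 and Lin37 rose by 0.29, while Lin52, Rbbp4 and Lin54, at -0.13, -0.03 and -0.01, did not pass. Of other genes whose products can join DREAM, Rbl1 fell by 0.25 and Tfdp2 by 0.46, and E2f5, on chromosome 3, rose by 0.55. Rbl2, E2f4 and Tfdp1, at 0.08, -0.04 and 0.11, did not pass.

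The circRNA libraries gave a separate readout of the same genes. They count reads over backsplice junctions, which mark circular RNA, and 74 circles had both ends on exon edges of one of the 38 genes. These came from 24 genes, and 14 genes had none listed. They took between 0.330% and 0.407% of the junction reads in cytoplasm and between 0.436% and 0.530% in whole cells. In the nuclear libraries between 3 and 14 reads fell on these circles, out of 2189 to 4383 junction reads. A further circle inside Cdca8, not on exon edges, had 1 and 1 nuclear reads in WT and 1 and 6 in KO. These counts, from 2 libraries a group, were not tested and are given as descriptions.

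The most-read circle came from Espl1 (chr15:102299803-102304145, GRCm38). Its junction was read 77 and 57 times in WT cytoplasm and 27 and 39 times in KO cytoplasm, out of 77818 and 81941 junction reads in all against 50629 and 63335. The whole-cell counts of 54 and 28 for WT overlapped the 56 and 31 for KO, and the nuclear libraries did not list it. The circles of Cenpf had 17 and 13 reads in WT cytoplasm and 1 and 1 in KO cytoplasm, but 8 and 11 against 9 and 11 in whole cells. Circles of Prc1 went the other way in cytoplasm, 3 and 4 reads for WT against 18 and 17 for KO, and had 25 and 25 against 22 and 28 in whole cells. Circles of Top2a had 23 and 25 reads in WT cytoplasm and 9 and 10 in KO cytoplasm, and 18 and 15 against 31 and 49 in whole cells. The linear mRNA of Espl1, Cenpf and Top2a fell in the mRNA-seq libraries and that of Prc1 did not pass; the circles of these 4 genes were named after their counts were seen.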

How the data were processed

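The mRNA-seq files hold raw read counts per gene that the authors deposited from featureCounts (version 2.0.0, paired reads, exons, no strand option, no multiple assignment) after HISAT2 alignment to mm10. The circRNA files hold deposited counts of junction reads from find_circ on GRCm38. Neither was normalized. The extraction text in the labels speaks of blood, whereas source and characteristics name NIH/3T3, which was followed. Of 55401 gene IDs, 55141 were matched to a symbol.

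Differential mRNA counts came from edgeR (version 4.0.16 in R 4.3.3, with TMM, filterByExpr, glmQLFit and glmQLFTest on genotype, Benjamini-Hochberg over all genes tested). DESeq2 (version 1.42.0) was an alternative. FPKM was computed from the counts, the deposited gene lengths and TMM-scaled library sizes. Tables and figures used Python 3.11.15 with pandas 2.3.3, numpy 2.4.6, scipy 1.17.1 and matplotlib 3.10.9. Between 16974062 and 22057323 reads were counted in each mRNA library. On simulated counts edgeR recovered 98.5% of 2-fold changes among 14406 genes, which need not hold for smaller ones.

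Members, lists and tests were chosen with earlier results of these data known. Fully described were Cdk1, the cyclins, Plk1, Aurka and Aurkb, the 5 members with the largest change, the 3 with the highest FPKM, members called against the majority, and the 3 genes of each other list with the smallest p. Other members are given by fold change. One gene that this rule would name is not reported here. Alternatives covered other scalings, no filter, DESeq2, the replicate number as a block, each library left out, TPM, other motif letters and another rule for circles. Motifs were searched as plain strings. Chromosome, local, length and motif-window comparisons were added after the data were seen. The authors' DRIP, RIP and imaging data were not analysed here.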

Additional observations from a re-analysis of the deposited data

How the results depend on the processing

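The direction of the 25 called genes held under every alternative run. DESeq2 called 23 of the 38 genes (without Cdc25c and Kif23), no filter on low counts 24 (without Kif23), and other scalings the same 25. Leaving out each library gave between 19 and 26 calls, of which 17 to 24 lower and 2 or 3 higher, and between 6143 and 7397 over all genes; the median log2 fold change of the 38 genes stayed between -0.19 and -0.17. Only Anln, Ccnb2 and Ect2, none of them called, changed sign in such fits. A fit with the replicate number as a block called 24 of the 38 genes, 2 higher and 22 lower, and 7124 of all genes. Its numbers do not pair the samples, because the deviations of same-numbered WT and KO libraries correlated at 0.0615, 0.0359 and -0.0889. Summed TPM gave a KO to WT ratio of 0.917 for the 38 genes. With TTTAAA also allowed, 85.3% of the promoters held the motif, beside 27.6% of all, and between 100 bases before the start and the end of the window TTTGAA was in 73.5%, beside 8.01%. Recovery of changes under 2-fold was not simulated.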

Other observations

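Genes of neighbouring cell cycle phases moved unevenly. Of 45 DNA replication genes, 18 fell, 7 rose and 20 did not pass (edgeR, adjusted p under 0.05), with a median log2 fold change of -0.13. The 55.6% called stand beside 48.7% of all genes, and the 40.0% that fell beside 23.6%. Mcm6, a subunit of the MCM helicase, was at 69.7, 72.5 and 72.3 FPKM in the WT libraries and at 47.4, 52.0 and 48.1 in the KO libraries, a drop of 0.54. It lies on chromosome 1, whose median was -0.21. Pole, the catalytic subunit of DNA polymerase epsilon, fell by 0.54 and Lig1, which joins Okazaki fragments, by 0.42.

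Of 16 G1 cyclins, CDKs and CDK inhibitors, 13 could be tested, of which 5 (38.5%) rose and 5 (38.5%) fell, beside 25.1% and 23.6% of all genes. All 3 D-type cyclins rose. Ccnd1 was at 18.2, 17.4 and 17.7 FPKM in WT and at 41.4, 39.5 and 45.3 in KO (log2 fold change 1.24 ± 0.06 SE, edgeR adjusted p = 3.6e-09). Ccnd2 rose by 0.77 and Ccnd3 by 0.67. Every KO library of each D-type cyclin lay above every WT library, on chromosomes whose medians were between -0.13 and -0.02.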
